A study of Mus musculus with 8 samples.

Results

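Immunoglobulin transcripts of the mammary gland were followed here through 30 of the 34760 probe sets on the Affymetrix Mouse Gene 1.0 ST array, a chip that reads each transcript with several short probes summarized to 1 value. A probe set was taken when every gene it is annotated to is an immunoglobulin heavy, kappa or lambda gene, which gave 29 probe sets, 10 for the heavy chain, 17 for the kappa light chain and 2 for the lambda light chain. A further probe set, which carries the name of Adck1, a gene outside the antibody loci, was added singly by its number. That number lies within the run of kappa numbers, but other probe sets in the run without a purely immunoglobulin name were not added. It is counted among the 30 but in no chain, and is called the added probe set below. The choice used names and numbers and no measured value of the comparison, although it was made with earlier results of these data known.

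RNA came from total mammary cell suspensions, which had not been sorted by flow cytometry, of 4 parous and 4 age-matched virgin groups of FVB/NHanHsd mice. Mating of the parous mice took place at an age of 42 days and lactation lasted 21 days, and the sample labels give 28 days of involution after that, whereas the methods of the study state a longer interval. Virgin mice had no pregnancy, and no allele or drug separated the groups. Each array held RNA pooled from 5 mice, so that n = 4 counts pools, p-values measure the spread between pools, and no value can be traced to 1 mouse. The methods describe removal of the lymph nodes before dissociation, and depletion of fat cells, red blood cells and fibroblasts, but no depletion of leukocytes.

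An antibody is built from a pair of identical heavy chains and a pair of identical light chains, each with a variable region that binds antigen and a constant region. In a B lymphocyte a variable gene is joined to short joining segments, and in heavy chains also to diversity segments, and is then spliced to a constant gene, which for the heavy chain sets the class (IgM, IgG, IgA). Plasma cells, the secreting end stage of this lineage, hold very large amounts of these transcripts. In the mammary gland, plasma cells that make IgA gather during lactation, and dimeric IgA bound by the J chain is carried across the epithelium into milk by the polymeric immunoglobulin receptor.

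All 30 probe sets had a higher mean in parous than in virgin pools. Of these, 25 passed the criteria of the study's methods (linear fold change over 1.5, adjusted p under 0.05, mean linear expression over 4) with a higher level in parous pools, against 0.239% of all probe sets in that direction. With the replicate number as a block 7 passed, against 0.0719% of all probe sets, and whether equal numbers share an experiment is not known. None passed with a lower level in limma, where 0.158% of all probe sets did, and since no difference was negative this holds for any threshold. The median log2 fold change was 2.50, a median fold of 5.67, and the range was 1.84 to 3.48 (3.57-fold to 11.1-fold), while the median over all probe sets was 0.0016. Without the added probe set the count was 24 of 29 with a median of 2.50, and the largest change was 3.06 (8.33-fold). In 29 of the 30 the lowest parous array lay above the highest virgin array, compared with 3.54% of all probe sets, and in 24 of them the distance between those arrays was over 1 on the log2 scale. Ranked by log2 fold change among all probe sets, 5 members, including the added probe set, stood among the first 10, 22 among the first 50 and all 30 among the first 67. As the samples are mixtures, more cells of a type and more RNA per cell cannot be told apart.

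**Figure D1:**
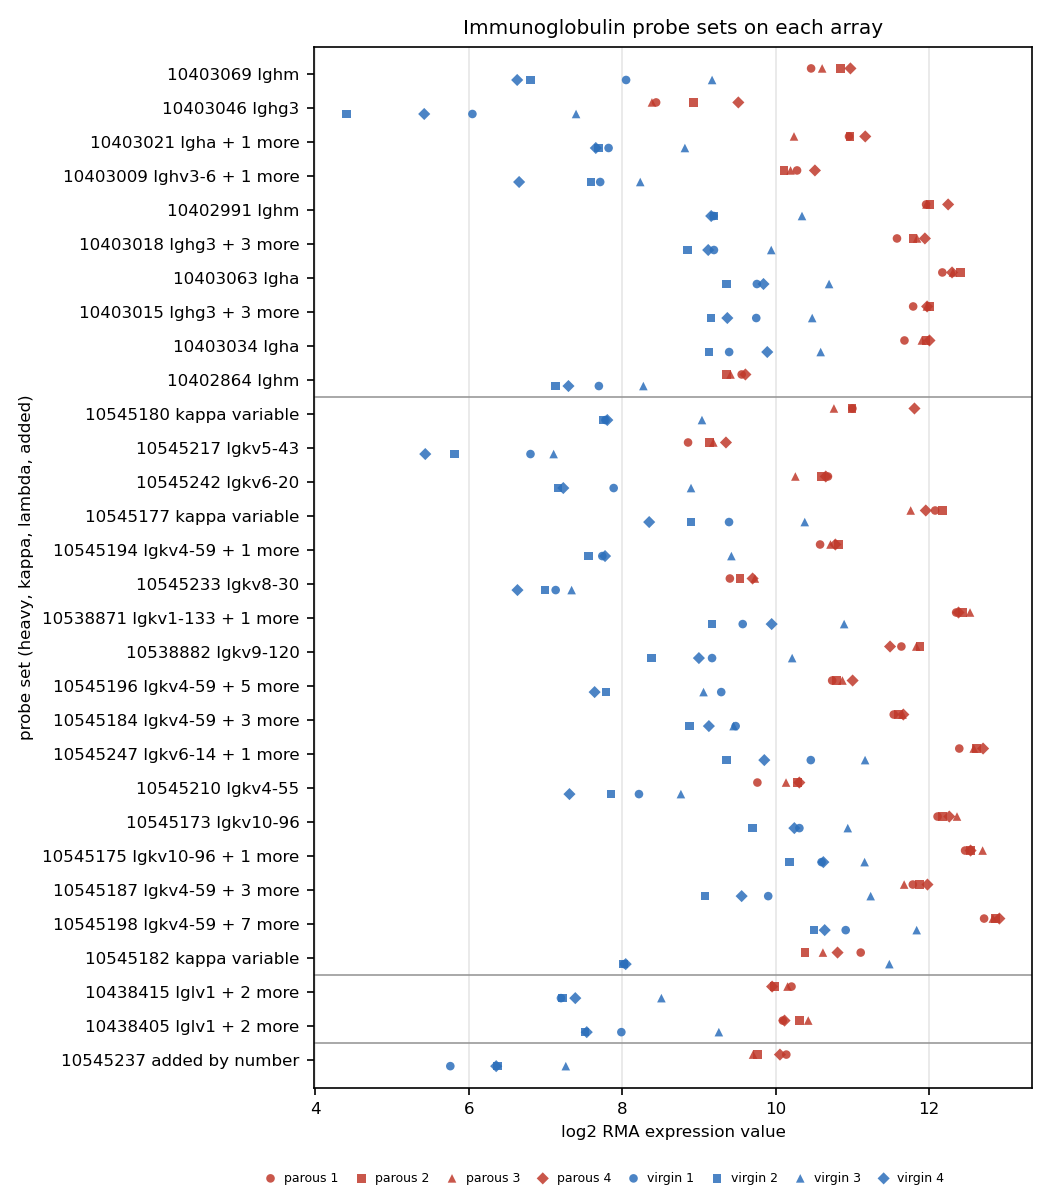
Log2 RMA expression value (x axis) of each of the 30 probe sets (rows, in the order heavy, kappa, lambda and the probe set added by number) on each array, with parous arrays in red and virgin arrays in blue and 1 marker shape per replicate number. The red points lie right of all blue points in 29 rows, and the exception is 10545182, where virgin 3 (11.48) lies right of the 4 parous arrays.

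Values for the 8 arrays had medians of 6.29 to 6.43, and correlations between arrays were 0.976 to 0.993. Virgin means lay below the lowest array median for 2 members, Ighg3 on 10403046 and Igkv5-43 on 10545217. Over all 34760 probe sets 83 were higher in parous pools, and 25 of these (30.1%) were immunoglobulin members. Epithelial keratins and adhesion genes were bright in both groups, with means of 10.6 to 13.1 in parous pools and 11.2 to 13.3 in virgin pools over the 8 markers measured.

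Heavy chain transcripts were read by 10 probe sets, 8 of which were higher in parous pools, with a median log2 fold change of 2.54 and a range of 1.88 to 3.06. The count was 5 without parous 2 or parous 3, 5 without virgin 2 and 4 together, and 1 with the replicate number as a block. Ighm, the constant gene of IgM, the class that B cells make first, had 3 probe sets. On 10402991 it read 11.96, 12.01, 11.97 and 12.25 in parous 1 to 4, against 9.19, 9.20, 10.34 and 9.16 in virgin 1 to 4. The groups did not overlap, the parous arrays lay within 0.29 of each other, and virgin 3 stood above the other virgin arrays. Its log2 fold change was 2.57 ± 0.257 (SE), a fold of 5.95 with an adjusted p of 0.0070.

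The second Ighm probe set, 10402864, had 9.56, 9.36, 9.41 and 9.61 in parous arrays and 7.70, 7.13, 8.28 and 7.30 in virgin arrays, again without overlap. It differed by 1.88 ± 0.227 with an adjusted p of 0.0123. The remaining Ighm probe set, 10403069, had the largest heavy chain difference and did not pass. Its parous values were 10.46, 10.85, 10.61 and 10.97, and its virgin values 8.05, 6.80, 9.17 and 6.63. Virgin arrays of this probe set spread over 2.54 with virgin 2 and 4 lowest, and a difference of 3.06 came with an SE of 0.511 and an adjusted p of 0.0587, although the groups did not overlap.

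Igha encodes the constant region of IgA, the main antibody class of mucosal secretions, and 2 probe sets named it alone. On 10403063 its values were 12.17, 12.41, 12.31 and 12.30 in parous arrays, against 9.76, 9.36, 10.70 and 9.84 in virgin arrays. On 10403034 they were 11.68, 11.96, 11.91 and 12.00 in parous arrays and 9.39, 9.13, 10.59 and 9.89 in virgin arrays. Both showed tight parous arrays, no overlap and virgin 3 as the highest virgin array, and both rose, by 2.39 ± 0.247 (5.23-fold, adjusted p = 0.0075) and by 2.14 ± 0.282 (4.40-fold, adjusted p = 0.0191).

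Ighg3, the constant gene of IgG3, was named alone by 10403046. It read 8.44, 8.93, 8.39 and 9.51 in parous arrays and 6.05, 4.41, 7.40 and 5.42 in virgin arrays. The groups stayed apart by 0.99 but both were wide, with SDs of 0.52 in parous and 1.25 in virgin pools. The difference of 3.00 had an SE of 0.573 and an adjusted p of 0.0915, so it did not pass.

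A further 4 heavy chain probe sets named a variable gene together with a constant gene, and all 4 were higher in parous pools, with a median of 2.62. Probe set 10403021, for Igha and the pseudogene Ighv1-33, had 10.96, 10.97, 10.24 and 11.17 in parous arrays and 7.82, 7.69, 8.82 and 7.66 in virgin arrays. Here parous 3 was the lowest parous array, yet it stayed above virgin 3, and the difference was 2.84 ± 0.294 (adjusted p = 0.0075). Probe set 10403009, for Ighv3-6 and Igha, averaged 10.27 ± 0.17 in parous and 7.55 ± 0.66 in virgin pools (SD, n = 4 each), a difference of 2.72. The other two, 10403015 and 10403018, carry the same 4 names (Ighg3, Igha, Ighv1-33 and Ighv1-26) and differed by 2.25 and 2.51. Names of this kind do not say which transcript was read, since rearranged heavy chain transcripts share constant exons and near-identical variable exons.

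The size of the difference was compared between the heavy chain classes on the probe set of each with the highest mean, as 3 pairs. The log2 fold change of Igha minus that of Ighm was -0.19 (95% CI -0.54 to 0.17, exact permutation p = 0.257, adjusted 0.386). For Ighg3 minus Ighm it was 0.43 (95% CI -0.81 to 1.66, exact permutation p = 0.429, adjusted 0.429), and for Ighg3 minus Igha 0.61 (95% CI -0.51 to 1.74, exact permutation p = 0.257, adjusted 0.386). No pair differed beyond the spread between pools. The interval of the first pair allows a change of Igha up to 0.54 smaller than that of Ighm, and the intervals that involve Ighg3 are wider still, so this does not show that the classes changed alike. The pairs also rest on 1 probe set per class. Igha on 10403063 changed by 2.39, between the other Ighm probe sets, 10402864 (1.88) and 10403069 (3.06). The sign of the first pair thus depends on the Ighm probe set taken.

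Kappa light chains had the most probe sets, and 15 of 17 kappa probe sets were higher in parous pools, with a median log2 fold change of 2.41 and a range of 1.84 to 3.04. The count was 6 without parous 1, 4 without parous 2, 3 or 4, 7 without virgin 1 and 8 without virgin 2. With the replicate number as a block it was 4. Of the 13 that named no constant gene 12 passed (median 2.53), as did 3 of the 4 that also named Igkc, the single kappa constant gene (median 2.13). The smallest SE of the 30 was found on 10545184, which names Igkc with Igkv4-59, Igkv4-70 and Igkv4-80. It read 11.54, 11.60, 11.65 and 11.66 in parous arrays and 9.48, 8.88, 9.45 and 9.13 in virgin arrays. The parous values lay close together, the lowest of them was 2.06 above the highest virgin value, and the difference was 2.38 ± 0.135 (5.20-fold, adjusted p = 6.8e-04).

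Another probe set with exactly those 4 names, 10545187, did not pass. Its values were 11.79, 11.88, 11.67 and 11.98 in parous arrays and 9.90, 9.08, 11.24 and 9.56 in virgin arrays. The parous arrays resembled those of 10545184 in their tightness, while virgin 3 came within 0.44 of the lowest of them, and the difference was 1.89 ± 0.397 with an adjusted p of 0.119. The remaining probe sets with Igkc named it among 6 genes (10545196) and among 8 genes (10545198), the most of any member. They averaged 10.85 ± 0.12 and 12.83 ± 0.08 in parous pools, against 8.44 ± 0.85 and 10.97 ± 0.60 in virgin pools, and rose by 2.41 and 1.86 (adjusted p = 0.0368 and 0.0272).

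Among probe sets of kappa variable genes, which encode the antigen-binding part of the light chain, the largest difference was 3.04 ± 0.333 (8.25-fold, adjusted p = 0.0094) on 10545180. It had 11.00, 10.99, 10.76 and 11.81 in parous arrays and 7.78, 7.75, 9.04 and 7.81 in virgin arrays. Parous 4 and virgin 3 stood above the rest of their groups, and 1.72 separated the groups. Igkv5-43 followed with 8.86, 9.14, 9.19 and 9.35 in parous arrays and 6.80, 5.81, 7.11 and 5.43 in virgin arrays. Its virgin arrays formed no tight cluster, with 1 and 3 high and 2 and 4 low, and the difference was 2.84 ± 0.350 (adjusted p = 0.0139). Igkv6-20 (2.75), probe set 10545177 (2.74) and 10545194, for Igkv4-59 and Igkv4-80 (2.60), completed the 5 largest, and all 3 passed. Igkv1-133 with Igkv1-135 on 10538871, Igkv9-120 and Igkv4-55 passed as well, with differences of 2.53, 2.52 and 2.09.

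Igkv8-30 differed by 2.57 ± 0.152 with an adjusted p of 6.8e-04, and its parous values were 9.40, 9.54, 9.73 and 9.70, against 7.13, 6.99, 7.34 and 6.64 in virgin arrays. Together with 10545184 it had the lowest adjusted p of the 30, and in both the virgin SD (0.30 and 0.28) was the smallest among the members. The variable gene probe sets with the highest mean log2 values, which also reflect how well a probe set hybridizes, were 10545247, for Igkv6-14 and Igkv6-15, and 10545175, for Igkv10-96 with the joining segment Igkj1. They averaged 12.57 ± 0.13 and 12.56 ± 0.10 in parous pools, against 10.21 ± 0.78 and 10.64 ± 0.40 in virgin pools, and rose by 2.36 and 1.92. The change of 10545175 was among the smaller ones of the kappa locus, as was that of Igkv10-96 on 10545173 (1.93, adjusted p = 0.0114).

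The one probe set with overlapping groups was 10545182. It read 11.11, 10.38, 10.62 and 10.81 in parous arrays and 8.03, 8.01, 11.48 and 8.05 in virgin arrays. Virgin 1, 2 and 4 lay close together, and virgin 3 exceeded their mean by 3.45 and exceeded every parous array. The difference was 1.84 ± 0.739 with an adjusted p of 0.394. Probe set 10545177, which carries the same single gene name, had 9.39, 8.90, 10.38 and 8.35 in virgin 1 to 4, all below its lowest parous value of 11.76, and it passed with an adjusted p of 0.0229.

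Lambda light chains, a minor share of antibodies in laboratory mice, had a pair of probe sets that both name Iglv1, Iglv2 and the constant gene Iglc1. On 10438415 the values were 10.21, 9.99, 10.16 and 9.95 in parous arrays and 7.20, 7.22, 8.51 and 7.39 in virgin arrays. On 10438405 they were 10.09, 10.31, 10.42 and 10.12 in parous arrays and 7.99, 7.52, 9.26 and 7.54 in virgin arrays. Neither showed overlap, and virgin 3 was again the highest virgin array on both. The first rose by 2.50 ± 0.274 (adjusted p = 0.0094), and the second missed the threshold with 2.16 ± 0.355 (adjusted p = 0.0536). Without parous 3 neither passed in limma, and without virgin 3 both did.

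**Figure D2:**
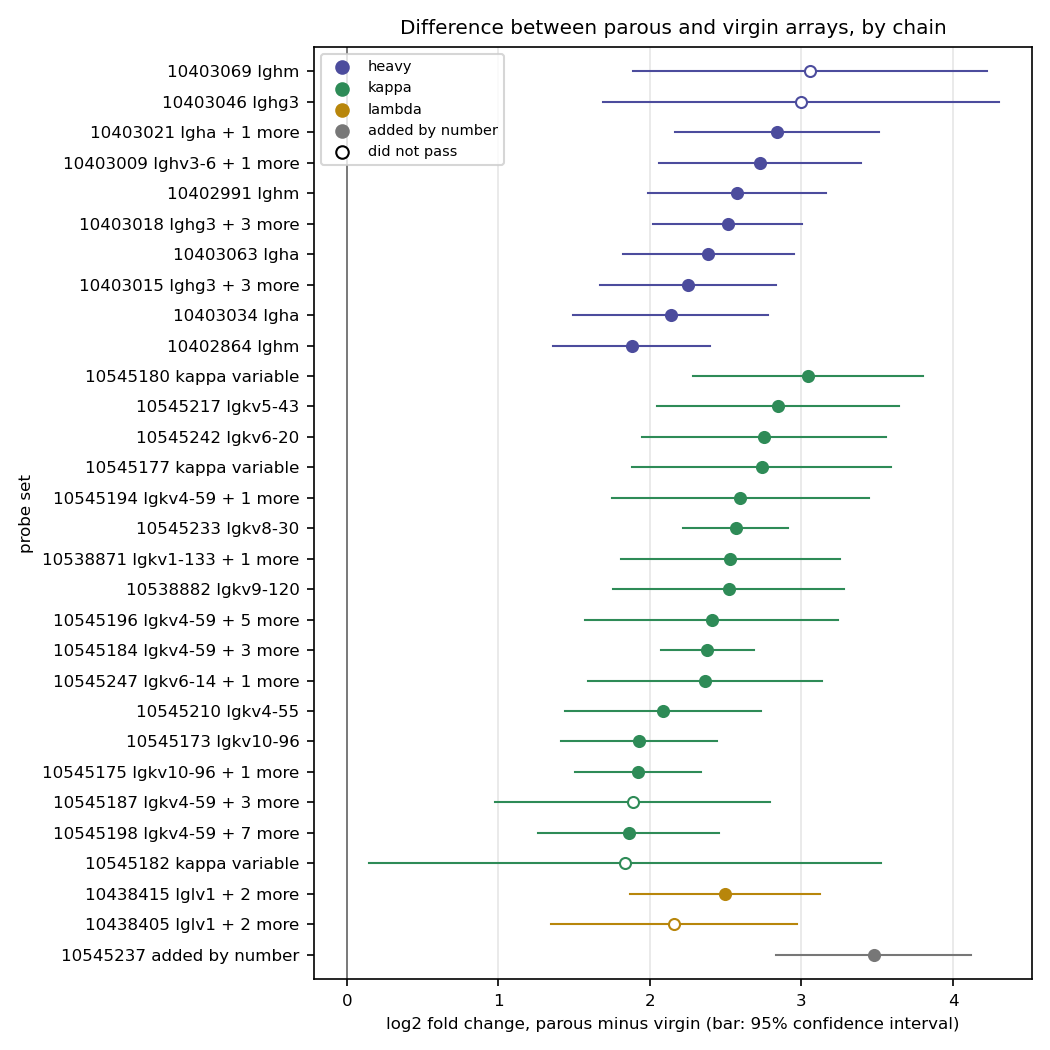
Log2 fold change, parous minus virgin (x axis), with its 95% confidence interval for each of the 30 probe sets (rows, by chain), filled where the criteria were met. The 30 estimates run from 1.84 (10545182, with the widest interval) to 3.48 (the added probe set), and every interval lies above 0.

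The added probe set had the largest difference of the 30. It read 10.14, 9.76, 9.71 and 10.06 in parous arrays and 5.76, 6.37, 7.26 and 6.36 in virgin arrays. The groups were 2.44 apart, the widest distance among the members, and virgin 1 was lowest. The log2 fold change was 3.48 ± 0.282 (11.1-fold, adjusted p = 0.0027). By number it lies between 10545233 for Igkv8-30 (2.57) and 10545242 for Igkv6-20 (2.75), whose genes also follow each other in that order among the named kappa genes in the RefSeq annotation of mouse assembly GRCm38.p6. The other probe set annotated to Adck1, 10397561, averaged 7.18 ± 0.08 in parous and 7.15 ± 0.10 in virgin pools, a difference of 0.036 (adjusted p = 0.919).

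The runs of numbers that hold the heavy and kappa members also held 45 probe sets to which the annotation gives no gene. Of these, 23 were higher in parous pools, against 0.239% of all probe sets, and none was lower in limma, against 0.158%. In 36 all parous arrays lay above all virgin arrays, against 3.54% of all probe sets. The median log2 fold change of the probe sets without a gene was 1.01 in the heavy chain run (23 probe sets, 11 higher). It was 2.23 and 2.29 in the kappa runs (7 and 15 probe sets, 3 and 9 higher). In the heavy run the values reached down to -0.61, so a place in the run did not go with a higher level throughout. Because these probe sets carry no name here they were not counted as members. Besides the added probe set, the runs held 5 probe sets with other names, which were not counted either. A pair of them, 10538880 and 10538921, names kappa genes together with Map3k20, a kinase gene, and so fell outside the choice. They rose by 2.05 and 1.93 (adjusted p = 0.0151 and 0.0095).

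The names cover 29 genes, all of them matched to RefSeq by gene identifier, and only a small part of the variable repertoire. The heavy, kappa and lambda loci lie on mouse chromosomes 12, 6 and 16. Members named 18 kappa variable genes, 8 of which belong to the Igkv4 family, where the RefSeq table lists 102 functional kappa variable segments and 60 pseudogenes. They named 3 heavy variable genes, where it lists 120 functional segments and 63 pseudogenes, and 2 of its 3 lambda variable segments. Coordinates are not given, because the genome build behind the array annotation was not stated in the sources consulted. The median log2 fold change was 2.57 for the 15 probe sets that name 1 gene (12 higher) and 2.39 for the 14 that name several (12 higher). Since members share constant exons, variable gene families and source cells, they are not independent measurements of 1 change.

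The virgin pools differed among themselves far more than the parous pools. The virgin SD was the larger one in all 30 members (57.9% of all probe sets), with a median of 0.64, against a median of 0.15 for the parous SD. Over all probe sets the median SDs were 0.14 in parous and 0.17 in virgin pools, close to the members in parous pools but not in virgin pools. Virgin 3 was the highest virgin array in 28 members (22.2% of all probe sets), by a median of 1.13 over the mean of the other virgin arrays. The exceptions were 10545184 and 10545196, where virgin 1 was highest. The lowest virgin array was 2 in 19 members, 4 in 9 and 1 in the remaining 2, lambda probe set 10438415 and the added probe set.

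Each probe set was also centred on its mean over the 8 arrays, and the centred values were averaged over members. The averages were 1.15, 1.24, 1.18 and 1.35 in parous arrays and -1.26, -1.75, -0.29 and -1.62 in virgin arrays. Heavy, kappa and lambda averages kept this order of virgin arrays, with 3 highest, 1 next and 2 and 4 lowest. The heavy average minus the kappa average was 0.045, 0.11, -0.018 and 0.20 in parous arrays and -0.12, -0.080, -0.11 and -0.033 in virgin arrays. Every parous value of this distance lay above every virgin value, by a narrow margin (-0.018 against -0.033), and the difference was not tested. The distances between chains are small beside the distance between the groups.

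**Figure D3:**
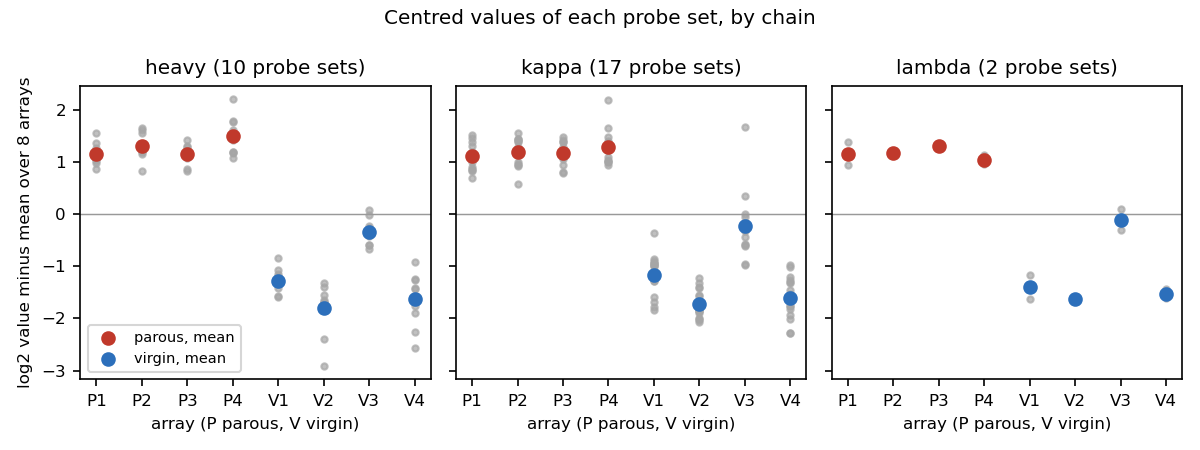
Log2 value minus the probe set's mean over the 8 arrays (y axis) on each array, for heavy, kappa and lambda probe sets (panels), with single probe sets in grey and their mean in red for parous and in blue for virgin arrays. The 4 parous arrays lie at about the same height in each chain, and the virgin arrays spread, with virgin 3 (-0.29 over all members) nearest to the parous arrays.

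Genes of plasma cells and antibody secretion were examined beside the immunoglobulins, and 4 of the 17 measured rose, 13 had a higher mean in parous pools, and the median log2 fold change was 0.32, which was 0.19 without virgin 4 and 0.16 without virgin 2 and 4. Jchain, whose product links IgA and IgM into polymers, read 11.99, 12.10, 12.16 and 12.28 in parous arrays and 9.70, 9.30, 10.78 and 9.30 in virgin arrays. Its virgin arrays stood in the order seen for the immunoglobulins, with 3 highest, and it differed by 2.36 ± 0.304 (adjusted p = 0.017). Derl3, which takes part in clearing misfolded proteins from the endoplasmic reticulum, rose by 1.30 ± 0.093 (adjusted p = 0.0017), and its virgin values of 7.67 to 7.89 lay close together. Tnfrsf17 and Tnfrsf13b, receptors for survival factors of plasma cells and B cells, rose by 1.24 and 0.89 (adjusted p = 0.031 and 0.032). Of these 4 genes only Derl3 passed in every fit that left out 1 array, whereas Jchain passed in 2, Tnfrsf17 in 1 and Tnfrsf13b in 1 of the 8 such fits, with adjusted p values of up to 0.083, 0.131 and 0.134. The number of the 17 that passed was 1 without any one of parous 1 to 4 or virgin 1 or 2, 2 without virgin 4 and 5 without virgin 3. Of the genes that did not pass, Mzb1 differed by 1.58 and Irf4 by 0.61 (limma adjusted p = 0.081 and 0.763). Xbp1 differed by 0.17, Prdm1 by -0.090 and Sdc1 by -0.24 (limma adjusted p = 0.407, 0.807 and 0.407), so the genes of the list did not all rise. An unadjusted p under 0.05 was found in limma for 8 of the 17, among them Sdc1 with its lower parous mean. The mean centred value of the list was 0.19 to 0.34 in parous arrays, against -0.26, -0.46, 0.051 and -0.47 in virgin 1 to 4. All parous averages thus lay above all virgin averages.

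None of 18 B cell markers passed in limma, 1 had an unadjusted p under 0.05, and their median log2 fold change was -0.22. The mean of 3 of them lay below the lowest array median. Cd79a, a signalling partner of the B cell receptor, had a difference of 0.75 (adjusted p = 0.763), and Blnk, an adaptor below that receptor, one of -0.57 (adjusted p = 0.179). The mean centred value of the list was -0.49 to 0.94 in parous arrays, against 0.24, -0.78, 1.58 and -0.78 in virgin 1 to 4, and the summed linear level was 5397 to 9327 in parous and 3281 to 12379 in virgin arrays. Virgin 3, the virgin array with the highest immunoglobulin values, had the highest B cell average of all 8 arrays, and its immunoglobulin average lay below all parous arrays. The median ranged between -0.60 without parous 1 and 0.36 without virgin 3 when 1 array was left out, and it was -0.87 without virgin 2 and 4, so it had no stable direction. Virgin 3 was also the highest virgin array for the T cell list (1.02, against -0.57 to 0.95 in parous arrays) and for the lymph node list (0.98, against -0.24 to 0.41 in parous arrays). The part of these cells in the immunoglobulin differences was not tested.

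None of the 8 genes of rearrangement and switching (median -0.02), the 8 Fc receptor genes (0.15), the 10 T cell genes (0.12), the 10 macrophage genes (0.24) or the 6 lymph node genes (-0.19) passed in limma. An unadjusted p under 0.05 was found for 1, 1, 0, 2 and 0 of them. Means lay below the lowest array median of 6.29 for 6, 3, 0, 0 and 3 of them, and for such dim genes a lack of change says little. The medians of the lists moved with single arrays. The T cell median was 0.48 without virgin 3, -0.18 without parous 1 and -0.55 without virgin 2 and 4, and the lymph node median turned to 0.083 without virgin 3. The rearrangement median lay between -0.058 without parous 4 and 0.049 without parous 2. The Fc receptor median was 0.25 without parous 2, 0.048 without parous 4 and -0.045 without virgin 2 and 4, and the macrophage median was 0.13 without parous 4 and 0.095 without virgin 2 and 4. The members with the largest differences included Vpreb3 (0.33), Fcgr3 (0.48), Cd3g (0.25), Mrc1 (0.72) and Cxcl13 (0.96), a chemokine that draws B cells into follicles.

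Transport and homing genes numbered 12, none of which passed in limma (4 at an unadjusted p under 0.05), with a median of 0.32 that was 0.50 without virgin 3 and 0.033 without virgin 2 and 4. Pigr, the receptor that carries polymeric IgA across epithelium, read 8.48, 8.96, 8.79 and 8.06 in parous arrays and 7.60, 7.71, 7.05 and 6.51 in virgin arrays. The groups did not overlap, and here virgin 3 was not the highest virgin array. The difference of 1.35 had an adjusted p of 0.126. Ccl28, a chemokine that attracts IgA plasma cells to the lactating gland, averaged 5.55 in parous and 5.03 in virgin pools without overlap, and its difference of 0.52 had an adjusted p of 0.041 but stayed under the fold criterion. Both of its means lay below the lowest array median of 6.29.

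Epithelial and proliferation genes ran lower in parous pools as whole lists. All 8 epithelial genes had a lower parous mean (median -0.40, and -0.24 without virgin 2 and 4), and Krt17, a basal keratin, fell by 1.18 (adjusted p = 0.017), a call lost without any one of parous 1 to 4 or virgin 2 (adjusted p up to 0.073). All 8 proliferation genes had a lower parous mean too, with a median of -1.43 that was -0.43 without virgin 2 and 4, and none passed in limma although all 8 had an unadjusted p under 0.05. Their centred averages were -0.97 to -0.58 in parous arrays, against -0.26, 1.39, -0.24 and 2.01 in virgin 1 to 4, so that the virgin arrays lowest in immunoglobulins, 2 and 4, were the highest in proliferation genes. Bub1 (-2.04) and Ccna2 (-1.77) had the largest differences. Without virgin 2 and 4 the immunoglobulin median was 2.10, and 14 of the 30 passed.

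**Figure D4:**
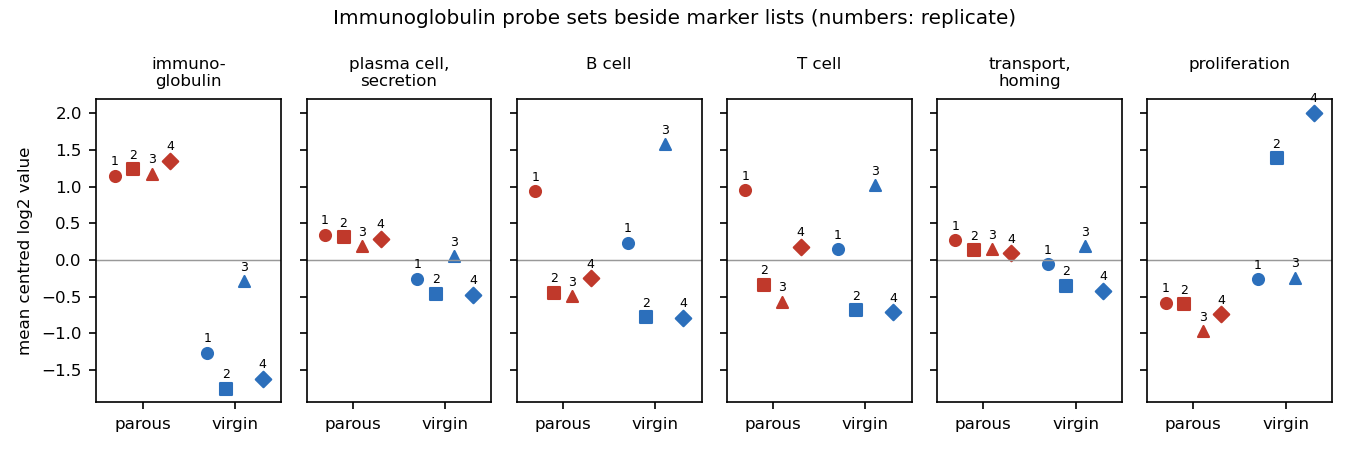
Mean centred log2 value (y axis) of the 30 immunoglobulin probe sets and of the plasma cell, B cell, T cell, transport and homing, and proliferation lists (1 panel each), 1 numbered point per array, parous in red at left and virgin in blue at right. Virgin 3 has the highest B cell value (1.58) and the highest immunoglobulin value of the virgin arrays (-0.29), which lies below every parous array.

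How many of the 30 passed depended on single arrays. The count was 14, 11, 10 and 12 without parous 1, 2, 3 and 4, 16, 18 and 20 without virgin 1, 2 and 4, and 30 without virgin 3, and every difference stayed positive in these fits. The share of all probe sets called higher moved as well, between 0.0777% without parous 3 and 0.316% without virgin 3. In all 8 fits 10 members passed, namely 10402991, 10403009, 10403018, 10403021, 10403063, 10545175, 10545180, 10545184, 10545233 and the added probe set, whereas 7 passed in only 1 of them. Without virgin 3 the difference of 10545182 was 2.70 and that of Ighg3 on 10403046 was 3.52 (adjusted p = 5.0e-04 and 0.0149). The members nearest the threshold on the inside were 10545194 (adjusted p = 0.0290) and 10545196 (0.0368), and on the outside 10438405 (0.0536) and 10403069 (0.0587). An exact two-sided permutation test of each probe set gave 0.029, the smallest p that 4 arrays against 4 allow, for all members but 10545182, for which it gave 0.143.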

How the data were processed

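The authors made the deposited log2 values from the scanned arrays with rma() of the affy package, for which no version was given in the sources consulted. RMA corrects background, quantile-normalizes the arrays and summarizes each probe set. The number of arrays limits the precision of the values. Members and gene lists were chosen with earlier results of these data known. Probe sets were named through the platform annotation and the RefSeq table of assembly GRCm38.p6, which gave names and gene order only.

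Parous was compared with virgin in R 4.3.3 with limma 3.58.1 (lmFit, eBayes, no covariate, two-sided) on all 34760 probe sets, with Benjamini-Hochberg adjustment over all of them. To pass, a probe set needed an adjusted p under 0.05, a linear fold above 1.5 and a mean log2 value above 2 (linear expression over 4). Intervals are at 95%. The scripts were tested on simulated data holding 200 changed probe sets. The 10 gene lists beside the immunoglobulins held 113 entries, of which 105 were measured.

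Named were all constant region members, in each chain the 5 largest and 2 smallest changes and the 2 brightest of the variable region members, the probe set added by number with its neighbours, up to 4 passing members of each gene list or the 2 with the largest change, and the members nearest the threshold. Some kappa members are given by probe set number alone, and some plasma cell genes that did not pass are given as well. Alternatives were a replicate block, leaving out each array or virgin 2 and 4, renewed quantile normalization, median centring, and eBayes with trend and robust estimation. Others were a Student t-test, leaving out dim probe sets, probe sets naming 1 gene only, no fold criterion and a fold over 2.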

Additional observations from a re-analysis of the deposited data

Results flagged for a closer look

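In 6 of the 60 groups of 4 values (30 probe sets, parous and virgin), 1 array stood farther from the others than Dixon's 95% criterion allows, which chance does in about 1 of 20 groups. In each of the 6 the array was virgin 3, and it was the highest of the virgin arrays. It read 10.34 for Ighm on 10402991, 8.82 for Igha and Ighv1-33 on 10403021, 8.51 for the lambda genes on 10438415, 9.04 on 10545180, 11.48 on 10545182 and 9.42 for Igkv4-59 and Igkv4-80 on 10545194. The 6 probe sets share their arrays and source cells and are not independent. No parous array stood apart in this way.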

How the results depend on the processing

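Of 30 members 25 passed, and the count was 25 after renewed quantile normalization, median centring, eBayes with trend and robust estimation, without a fold criterion and at a fold over 2. Leaving out 1 array gave 10 to 30 (heavy 5 to 10, kappa 4 to 17, lambda 0 to 2). Without virgin 2 and 4 together 14 passed (heavy 5, kappa 8, lambda 0; 0.138% of all probe sets). The study's methods give limma for the arrays and a Student t-test for comparisons in general. That t-test gave 29 at its unadjusted p (lambda 2), where it called 1.25% of all probe sets higher. After Benjamini-Hochberg it gave 2 (heavy 0, kappa 2, lambda 0), where it called 0.0173%. With probe sets naming 1 gene only, 14 of 16 passed (heavy 5, kappa 8 and the added probe set, which is among the 16), against 0.268% of all such probe sets. The lambda count was 0 because no lambda probe set names 1 gene. Without dim probe sets, judged by the higher of the 2 group means against the median of all values, 28 passed (lambda 2), against 0.597% of those tested. Members stayed in by their parous mean, also the 2 with a virgin mean below the lowest array median, so this count is not independent support. No difference changed sign under any of these. With the replicate number as a block 7 passed (heavy 1, kappa 4, lambda 1), against 0.0719% of all probe sets. A legend of the study describes independent experiments that each held virgin and parous mice, but it does not say which arrays shared one. The labels number the pools 1 to 4 in both groups without tying equal numbers together, deviations of same-numbered arrays from their group means correlated at -0.057 to 0.31, and 4 of 8 arrays correlated best with their own number, so the numbers were not used as pairing, and whether the block is the right design could not be settled. Fits without an array have fewer samples by construction, and the cause of the other changes was not tested. With 4 pools a group the precision is limited by their number.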
